A study of Mus musculus with 8 samples.

Results

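Phosphatidylinositol trisphosphate (PIP3), the lipid that class I phosphoinositide 3-kinases (PI3K) make at the plasma membrane, recruits proteins whose pleckstrin homology (PH) domains bind it. The 10 genes described here encode such proteins: the TEC-family tyrosine kinases Btk, Tec and Bmx, the phospholipases Plcg1 and Plcg2, the guanine nucleotide exchange factors Prex1 and Vav1, and the adaptors Gab1, Gab2 and Dapp1. They were chosen by name, and for each the transcript row with the highest mean over the arrays was read. All 10 were found, each with 1 row, among 19505 gene symbols in the table.

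Transplanted mice with MLL-AF9 leukaemia gave the cells: bone marrow was sorted for GFP and a granulocyte-macrophage progenitor (GMP) phenotype, and the labels name the result leukaemia stem cells. MLL-AF9 is a fusion oncogene that makes myeloid progenitors self-renew. The KO group had 3 arrays of cells labelled Pik3ca-/-, the gene of p110-alpha, a catalytic subunit of PI3K, and the WT group had 5 arrays of cells labelled WT, also with MLL-AF9. The labels give no Cre driver, deleted exon, age or sex, and leave it unsaid how many mice stand behind the arrays of each group. The p-values therefore measure a spread among samples that may be technical.

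In a cell with active PI3K, PIP3 draws TEC kinases to the membrane, where they phosphorylate and activate phospholipase C-gamma. That enzyme cleaves its lipid substrate into diacylglycerol and inositol trisphosphate, which releases calcium. Exchange factors load Rac with GTP and reshape actin, and the Gab adaptors bring the phosphatase SHP2 and more PI3K to receptors. In myeloid cells these routes serve chemotaxis, adhesion, the oxidative burst and growth factor signals.

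Values are the deposited log2 values. On 7 of the arrays the mean correlation with the others across genes was 0.968 to 0.972, and WT array 3 stood apart at 0.921, so the differences of the 10 genes, of Pik3ca and of the genes named from the pathway lists are also given without it. Pik3ca itself was 8.73, 9.31 and 9.40 in KO and 9.48, 9.57, 8.41, 9.51 and 9.58 in WT arrays 1 to 5. The difference was -0.16 (exact two-sided permutation p = 0.661), and the groups overlapped through WT array 3 alone. Without that array every KO value was below every WT value, as in 5.55% of all genes tested in either direction, and the difference was -0.39. Its exact permutation p of 0.0286 is the smallest that 35 splits can give. Whether this row lies in the deleted part of the gene was not tested. Of the defining GMP markers, Mpo, Elane, Prtn3, Kit and Fcgr3 lay at the 96.7th percentile of transcript rows or higher on every array. Cd34 was 5.63, 7.81 and 7.42 in KO and 9.49, 7.24, 10.94, 9.08 and 8.01 in WT, a difference of -2.001 that was -1.50 without WT array 3 and had an adjusted p of 0.998 in limma. It was above the 95th percentile of the negative control rows on 0 of the 8 arrays. The part of this difference in the values of the 10 genes was not tested. A percentile here is the share of the 22206 transcript rows of the array that lay below the row.

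None of the 10 genes passed the test of KO against WT. In bulk samples like these, fewer cells of a type and less RNA per cell cannot be told apart. A gene was tested with limma if its row lay above the median row on at least 3 arrays. That left 9920 genes, and 9 of the 10, all but Gab1, were in this set, each above the median on all 8 arrays. At a Benjamini-Hochberg adjusted p under 0.05, 0 of 9 were called, against 0% of all genes tested, with a smallest adjusted p over all genes of 0.998 in limma. At an unadjusted p under 0.05 the counts were 0 of 9 and 2.84% of all genes. In 0 of 9 did the groups not overlap, against 3.09% of all genes. Of the 9 genes 6 had a mean above and 3 a mean below WT, where 56% of all genes were above. Their median log2 difference was 0.21, against 0.04 over all genes tested. Leaving out WT array 3, 0 of 9 were called, against 0% of all genes, 0 of 9 had an unadjusted p under 0.05, against 4.68%, and 0 of 9 had groups that did not overlap, against 5.55%. Of the 9, 5 lay above and 4 below, against 50.1% above over all genes, and the median was 0.07. Without WT array 1 it was 0.03.

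**Figure D1:**
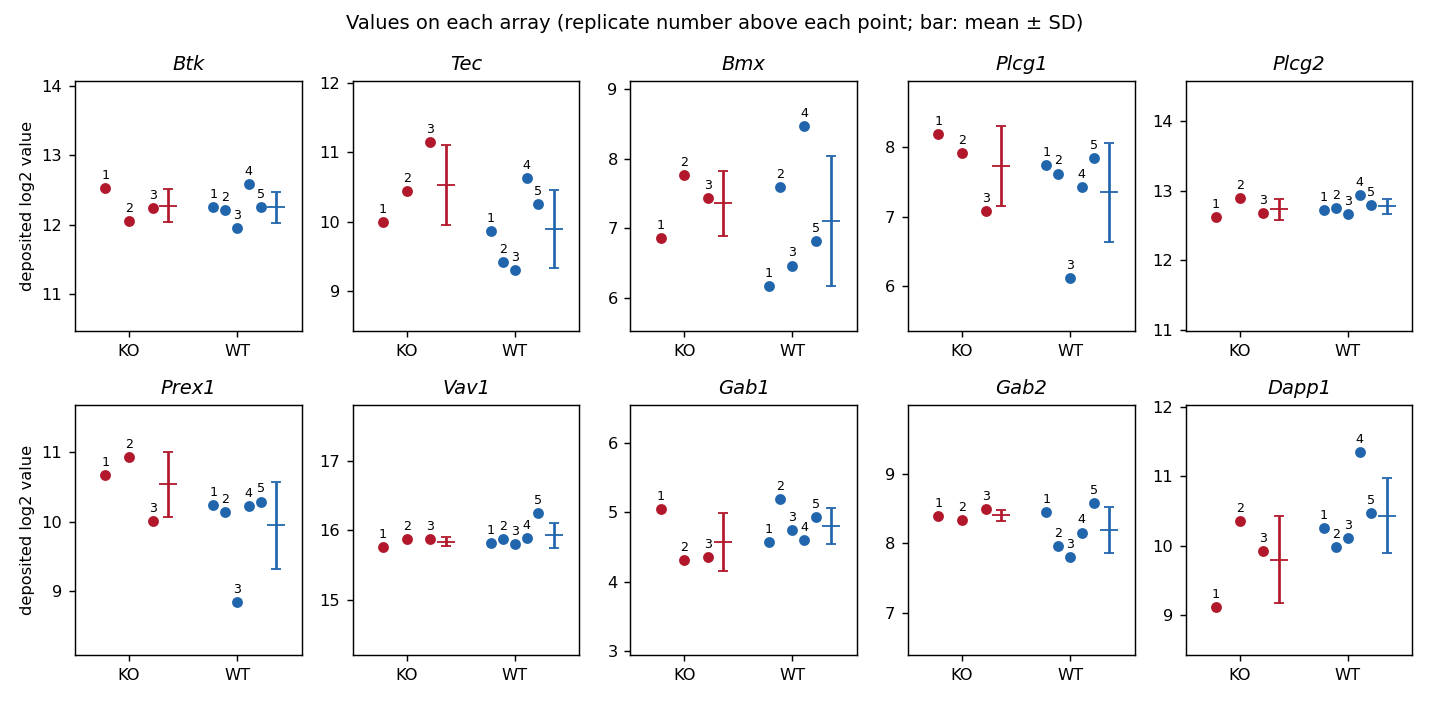
Deposited log2 values (vertical axis, the same span in each panel) of the 10 genes on the 3 KO arrays (red, left) and the 5 WT arrays (blue, right), with replicate numbers above the points and a bar for mean ± SD. The groups overlap in every panel, and WT array 3 is the lowest point for Btk, Tec, Plcg1, Prex1 and Gab2.

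The TEC kinases share a PH domain, an SH2 domain and a tyrosine kinase domain. Btk, the kinase mutated in X-linked agammaglobulinaemia and also used by myeloid cells, was 12.53, 12.06 and 12.25 in KO and 12.25, 12.21, 11.95, 12.58 and 12.26 in WT arrays 1 to 5. Its highest and lowest values were both in WT, on arrays 4 and 3. The means of 12.28 ± 0.24 (SD, n = 3) on the KO arrays and 12.25 ± 0.22 (SD, n = 5) on the WT arrays differed by 0.03, with a 95% interval of -0.46 to 0.51 in limma. The direction turned to -0.05 without WT array 3.

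Tec, the founding kinase of the family, was 9.996, 10.44 and 11.14 in KO and 9.86, 9.41, 9.30, 10.63 and 10.26 in WT. KO array 3 was the highest of the 8, and KO arrays 1 and 2 lay within the range of WT. Tec had the largest positive difference of the 10 genes, 0.63 with a standard error of 0.38 and an interval of -0.22 to 1.49, and it was 0.33 without KO array 3 and 0.90 without KO array 1. Leaving out WT array 3 gave 0.49. The exact two-sided permutation p was 0.196, and the adjusted p in limma was 0.998.

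Bmx, a TEC kinase known from endothelial and myeloid cells, was 6.85, 7.77 and 7.44 in KO and 6.16, 7.59, 6.46, 8.47 and 6.81 in WT. The WT arrays alone spanned all of the KO values. The KO arrays had an SD of 0.46 (n = 3), the WT arrays one of 0.94 (n = 5), and the difference of 0.26 had an interval of -0.90 to 1.41. It moved to 0.02 without WT array 1, to 0.10 without WT array 3 and to 0.60 without WT array 4.

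The phospholipases C-gamma cleave phosphatidylinositol bisphosphate once a tyrosine kinase has activated them. Plcg1, the widely expressed form, was 8.19, 7.92 and 7.08 in KO and 7.75, 7.62, 6.11, 7.43 and 7.84 in WT. WT array 3 lay far below the other arrays and KO array 3 was next above it. With all arrays the difference was 0.38, with an interval of -0.59 to 1.36 in limma, and without WT array 3 it was 0.07. Without KO array 3 it was 0.71.

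Plcg2, the form prominent in haematopoietic cells, was 12.62, 12.90 and 12.68 in KO and 12.72, 12.75, 12.66, 12.94 and 12.80 in WT. All 8 values fell within 0.32 of each other. The difference was -0.04, with an interval of -0.45 to 0.37, and the fold of KO over WT was 0.971. The difference was -0.07 without WT array 3.

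Prex1 and Vav1 activate Rac-family GTPases. Prex1, an exchange factor that PIP3 and G-protein beta-gamma subunits activate together, was 10.67, 10.92 and 10.01 in KO and 10.24, 10.13, 8.84, 10.23 and 10.29 in WT. KO arrays 1 and 2 were above every WT array, KO array 3 was below 4 of the 5, and WT array 3 was lowest. The difference of 0.59 had a standard error of 0.38 and an interval of -0.27 to 1.45, and the exact permutation p was 0.268. Without WT array 3 the other 4 WT arrays had an SD of 0.07, the difference was 0.31, and the exact permutation p over 35 splits was 0.257. Without KO array 3 the difference was 0.85.

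Vav1, an exchange factor of blood cells that is switched on by tyrosine phosphorylation, was 15.77, 15.88 and 15.87 in KO and 15.82, 15.88, 15.80, 15.89 and 16.25 in WT. Apart from WT array 5, the arrays differed little. The difference of -0.09 had an interval of -0.52 to 0.34, and it was -0.01 without WT array 5 and -0.12 without WT array 3.

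The adaptors have no enzyme activity of their own. Gab2, which binds SHP2 and the p85 subunit of PI3K downstream of cytokine receptors, was 8.39, 8.33 and 8.48 in KO and 8.44, 7.96, 7.80, 8.15 and 8.58 in WT. The KO arrays lay close together in the upper part of the WT range, with an SD of 0.08 (n = 3) against 0.33 (n = 5). The difference was 0.21, with an interval of -0.31 to 0.74 in limma, and 0.12 without WT array 3.

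Dapp1, also called Bam32, pairs an SH2 domain with a PIP3-binding PH domain. It was 9.12, 10.36 and 9.93 in KO and 10.26, 9.99, 10.12, 11.34 and 10.47 in WT. KO array 1 was the lowest and WT array 4 the highest of the 8, and KO array 2 lay within the WT range. It had the largest negative difference of the 10 genes, -0.63 with a standard error of 0.38 and an interval of -1.49 to 0.22. The exact permutation p was 0.214, and the adjusted p in limma was 0.998. Without KO array 1 the difference was -0.29, and without KO array 2 it was -0.91. Without WT array 3 it was -0.71.

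Gab1, the more widely expressed relative of Gab2, was dim. It was 5.06, 4.31 and 4.36 in KO and 4.58, 5.19, 4.74, 4.5998 and 4.93 in WT, below the median row on all 8 arrays, and 29.4% to 45.4% of the 5222 negative control rows lay below it. Its difference of -0.23, with an interval of -0.75 to 0.28, therefore comes from a fit with no filter on dim rows, where its adjusted p in limma was 0.999. Leaving out KO array 1 gave -0.48, leaving out KO array 2 gave -0.10 and leaving out WT array 3 gave -0.25. That fit with all arrays called 0 of 19505 genes, with 592 at an unadjusted p under 0.05, or 3.04%.

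**Figure D2:**
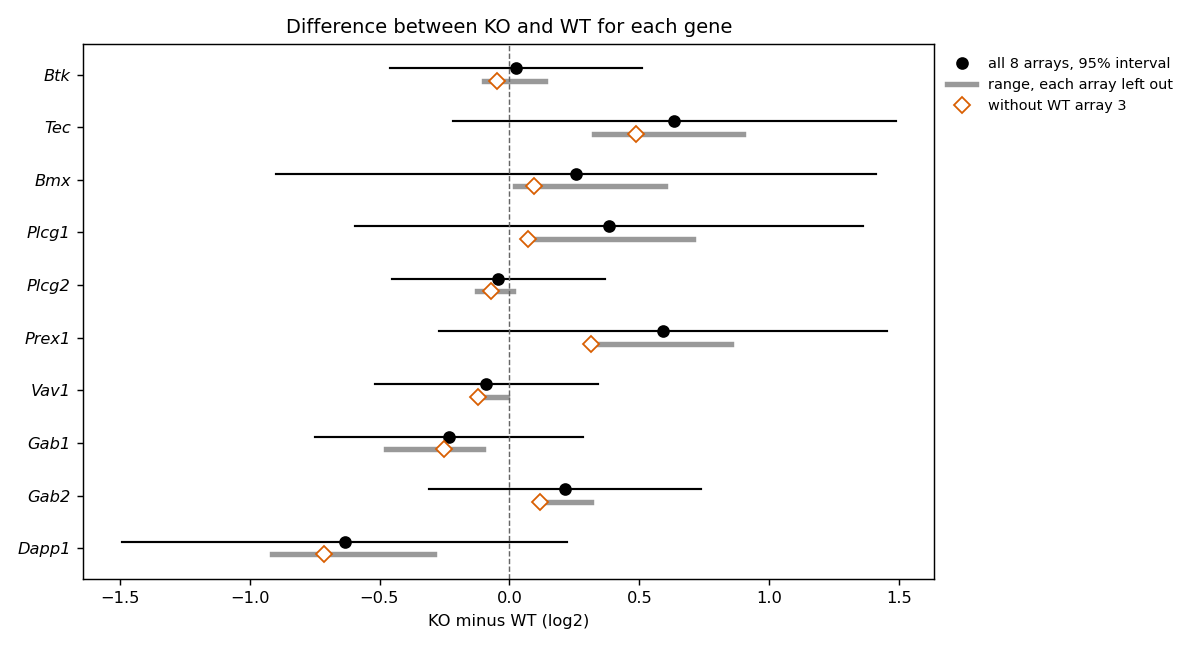
KO minus WT difference (horizontal axis, log2) of each gene over all 8 arrays with its 95% interval from limma (black), the range when each array was left out in turn (grey) and the value without WT array 3 (open diamonds). Every interval includes 0, and the differences run from -0.63 for Dapp1 to 0.63 for Tec.

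Differences of at least 0.5 in either direction were found in 3 of the 9 tested genes, Tec, Prex1 and Dapp1, against 15.9% of all genes tested. Leaving out WT array 3 there was 1, Dapp1, against 11.1% of all genes. On the fold scale KO over WT was 1.55 for Tec, 1.51 for Prex1 and 0.644 for Dapp1. Over the 10 genes the exact permutation p ran from 0.196 to 0.875, where the smallest that 56 splits can give is 0.0179. The intervals of Tec, Bmx, Plcg1, Prex1 and Dapp1 reach past a log2 difference of 1 in one direction, so changes of that size were not shown to be absent. The intervals of Btk, Plcg2 and Vav1 stayed within 0.52 of 0. Those of Gab1 and Gab2 are narrow too, but neither row was above the 95th percentile of the negative controls on any array, so they set no limit on a change.

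Relative to the other rows of the same array, the genes differed in how far they ranged. Vav1 lay between the 98.9th and the 99.0th percentile in KO and the 98.9th and the 99.4th in WT. Plcg2 lay between the 90.3rd and the 91.2nd percentile in KO and the 90.6th and the 91.6th in WT. Btk was near them, between the 87.6th and the 89.9th in KO and the 88.4th and the 90.0th in WT. These 3 rows were also above the 95th percentile of the negative control rows on all 8 arrays. Tec was above it on 6 arrays, Prex1 on 5 and Dapp1 on 4, and Bmx, Plcg1, Gab2 and Gab1 on 0. These percentiles describe the brightness of rows and do not order the genes by transcript number.

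The other genes sat lower. Tec ranged over the 77.9th to the 83.5th percentile in KO and the 74.9th to the 80.7th in WT, and Prex1 over the 77.9th to the 82.1st and the 73.7th to the 79.0th. Dapp1 ranged over the 73.5th to the 79.1st in KO and the 77.8th to the 84.4th in WT. Gab2 held between the 68.9th and the 70.2nd in KO and the 67.8th and the 70.4th in WT. Plcg1 ran from the 63.4th to the 68.9th in KO and from the 57.9th to the 66.7th in WT, and Bmx from the 62.1st to the 66.2nd and from the 57.7th to the 70.0th. Gab1 was between the 33.7th and the 47.3rd percentile in KO and the 38.2nd and the 49.6th in WT.

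**Figure D3:**
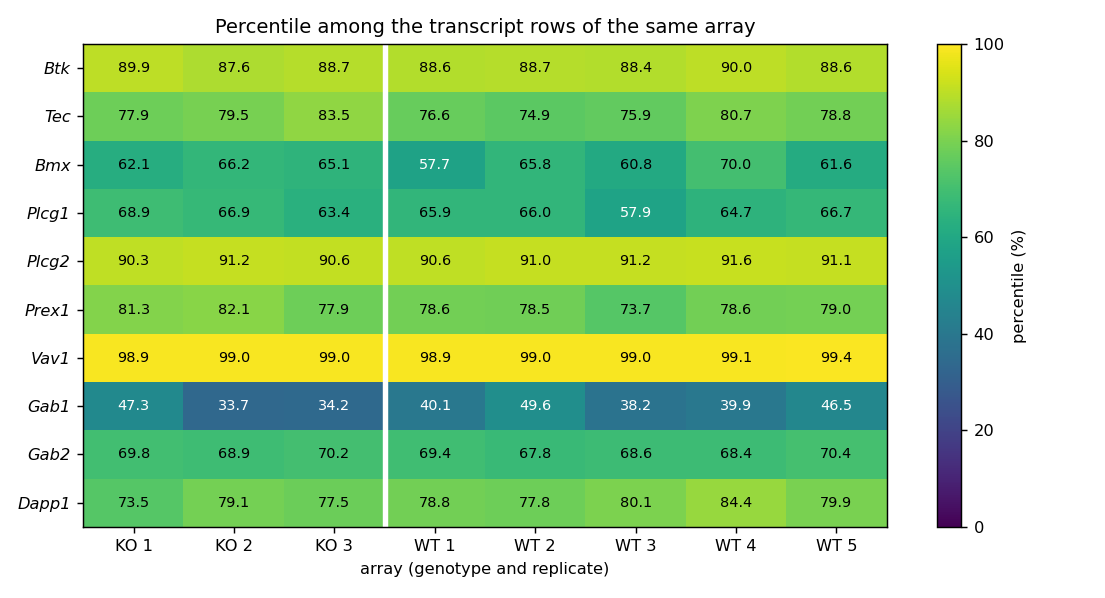
Percentile of each gene's row among the transcript rows of the same array (colour and printed value), with genes down the page, KO arrays left of the white line and WT arrays right of it. Vav1, Plcg2 and Btk are in the top band on every array, and Gab1 stays below the 50th percentile on all 8.

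The genes differed in their spread over the arrays. The gap between the highest and the lowest of the 8 arrays was 0.32 for Plcg2, 0.48 for Vav1, 0.63 for Btk and 0.78 for Gab2, against a median of 1.32 over all genes tested. Plcg2 was at the 0.938th percentile of that gap over all genes, Vav1 at the 4.78th, Btk at the 10.6th and Gab2 at the 18.8th. The gap was 1.84 for Tec, 2.08 for Plcg1, 2.08 for Prex1, 2.23 for Dapp1 and 2.31 for Bmx, between the 71.8th and the 83.8th percentile. For Plcg1 and Prex1 a large part of it was 1 array. Among the WT arrays their SD was 0.71 and 0.62, and without WT array 3 it was 0.18 and 0.07, against 0.45 and 0.28 for the median gene. For Gab2 the SD among the WT arrays was 0.33, and 0.28 without WT array 3, the 49.4th percentile of all genes, above Plcg1 at the 25.3rd and Prex1 at the 2.60th. Bmx stayed variable without that array, with an SD of 1.00, as did Dapp1 with 0.59 and Tec with 0.52. These percentiles are over tested genes of all levels and were not matched for brightness. Plcg2, Vav1 and Btk were the brightest of these rows, so whether their small spread is particular to them was not tested.

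**Figure D4:**
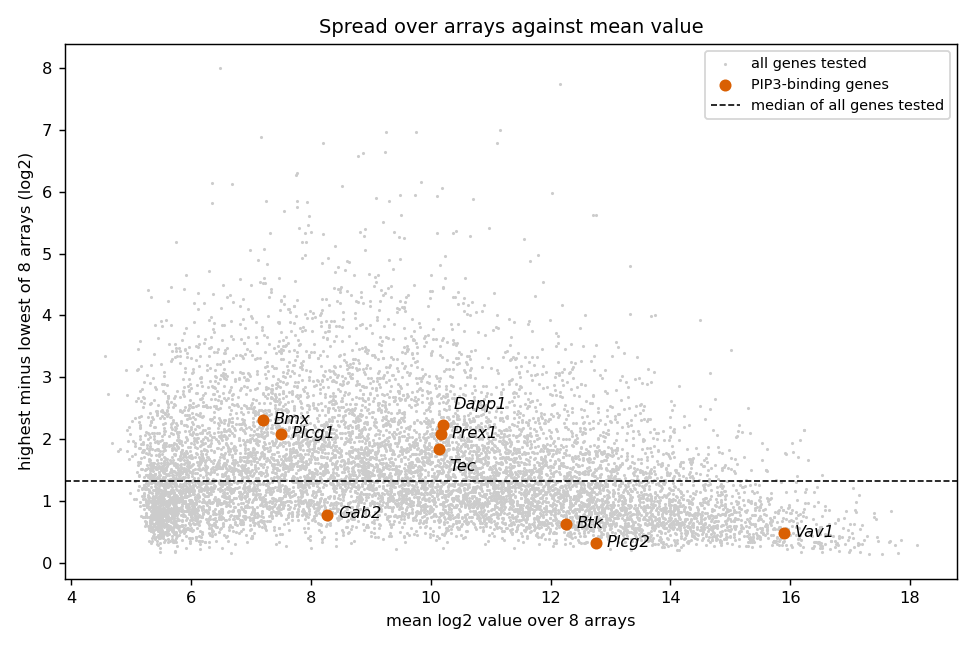
Highest minus lowest of the 8 arrays (vertical axis, log2) against the mean log2 value (horizontal axis) for all 9920 genes tested (grey) and the 9 PIP3-binding genes among them (orange), with the median of all genes dashed. Plcg2, Vav1, Btk and Gab2 lie below the dashed line and the other 5 above it.

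WT array 3 was low across these genes. All 9 tested genes were below their mean on the other 7 arrays, with a median deviation of -0.54, against -0.14 for all genes, of which 43.4% were above. It held the lowest value of 5 of the 9, where it held the lowest of 36.5% of all genes, and the highest of 0, where it held the highest of 25% of all genes. WT array 4 held the highest value of 4 of the 9, Btk, Bmx, Plcg2 and Dapp1, where it held that of 9.60% of all genes. KO array 1 held the lowest of Plcg2, Vav1 and Dapp1. The part that the state of WT array 3 has in these values was not tested.

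Pairs of genes were compared over the 8 arrays, which share a sort, a platform and an unknown normalization. Of the 36 pairs of tested genes, 31 had a Pearson correlation above 0 and 5 below, against 20 above and 16 below without WT array 3. With all arrays 2 pairs had an adjusted p under 0.05. The same shares over pairs drawn from all genes tested were not computed. The permutations treat the 8 arrays as exchangeable, although WT array 3 stood apart. The counts and the 2 pairs therefore do not show a relation particular to these genes. Plcg1 and Prex1 had an r of 0.940 and a Spearman coefficient of 0.952. The exact two-sided permutation p was 0.00156 for the first and 0.00114 for the second, with adjusted p of 0.0424 and 0.0411 over the 36 pairs. Both genes were lowest on WT array 3, next lowest on KO array 3 and highest on KO arrays 1 and 2. Leaving out these 2 low arrays, the farthest from the median of Plcg1, gave an r of 0.701, and leaving out WT array 3 alone gave 0.762.

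Plcg2 and Dapp1 were the other pair. Their r was 0.841 and their Spearman coefficient 0.857, with exact permutation p of 0.00236 and 0.0107 and adjusted p of 0.0424 and 0.129, so the rank correlation did not pass. Both were lowest on KO array 1 and highest on WT array 4. Without KO array 2 and WT array 4, the farthest from the median of Plcg2, r was 0.776, and without WT array 3 it was 0.881. The whole span of Plcg2 in this relation was 0.32 on the log2 scale.

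The promoters of these 4 genes are shown because they form the pairs whose Pearson correlation passed. Each window runs from 250 bases before to 50 bases after the annotated start, 5′ to 3′ along the gene, from RefSeq on GRCm38.p6, and capitals mark the GC box GGGCGG or its complement.
Plcg1 (chr2:160731060-160731359, plus strand): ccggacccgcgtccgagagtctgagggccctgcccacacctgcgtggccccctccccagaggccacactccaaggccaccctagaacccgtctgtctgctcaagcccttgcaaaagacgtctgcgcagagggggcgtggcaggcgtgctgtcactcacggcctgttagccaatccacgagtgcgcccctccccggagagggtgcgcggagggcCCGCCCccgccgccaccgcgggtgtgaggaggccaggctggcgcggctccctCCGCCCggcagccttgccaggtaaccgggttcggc
Prex1 (chr2:166713783-166714082, minus strand): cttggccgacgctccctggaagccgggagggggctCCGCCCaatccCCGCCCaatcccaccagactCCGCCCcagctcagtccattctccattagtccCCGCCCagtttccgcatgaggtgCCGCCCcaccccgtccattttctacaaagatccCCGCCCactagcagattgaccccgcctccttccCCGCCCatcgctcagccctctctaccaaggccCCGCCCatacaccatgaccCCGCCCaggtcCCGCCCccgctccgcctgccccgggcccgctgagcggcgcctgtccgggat
Plcg2 (chr8:117498025-117498324, plus strand): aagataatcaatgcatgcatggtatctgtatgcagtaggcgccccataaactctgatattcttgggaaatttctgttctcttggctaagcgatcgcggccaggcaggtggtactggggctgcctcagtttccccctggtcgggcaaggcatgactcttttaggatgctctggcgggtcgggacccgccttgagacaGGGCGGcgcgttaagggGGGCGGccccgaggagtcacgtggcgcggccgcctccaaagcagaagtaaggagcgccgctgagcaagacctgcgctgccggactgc
Dapp1 (chr3:137981500-137981799, minus strand): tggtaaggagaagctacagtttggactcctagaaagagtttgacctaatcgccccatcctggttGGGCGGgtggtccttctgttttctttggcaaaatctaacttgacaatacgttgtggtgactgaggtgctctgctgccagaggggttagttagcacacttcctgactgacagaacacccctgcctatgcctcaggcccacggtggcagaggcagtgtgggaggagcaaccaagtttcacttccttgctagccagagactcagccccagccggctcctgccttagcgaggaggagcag
The GC box was found in 8 of 10 windows, against 35.7% of 32851 windows of the same length, searched on both strands. These 8 windows belong to 7 of the 9 genes that have a window in the RefSeq table. The GC box occurred 10 times in Prex1, 2 times each in Plcg1 and Plcg2 and 1 time in Dapp1. GC content was 72%, 69.3%, 60% and 54.7% in Plcg1, Prex1, Plcg2 and Dapp1, against a median of 52.7% over all windows. The windows compared for the GC box were not matched for GC content, so its share shows no excess beyond that content. The ETS core AGGAAGT, a form of the site bound by PU.1 and its relatives, was in the windows of Vav1 and Dapp1, against 9.35% of all windows. In Vav1 it began 10 bases before the start, and in Dapp1 it occurred 91 and 10 bases before. The RUNX core TGTGGT was in the window of Dapp1 and in 16.8% of all windows. These are matches of letters and not measured binding. Gab2 has no window here.

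For each tested gene, the 2 genes with the most similar profile by Pearson correlation over the 8 arrays were found among 9919 others. Such a search returns high values by choice, so they are a description. For the kinases they were Zfp52 and Ip6k2 with Btk, at 0.956 and 0.944, Mob4 and Scly with Tec, at 0.962 and 0.956, and Htt and Setd6 with Bmx, at 0.934 and 0.934. For the phospholipases they were Gpaa1 and Tk2 with Plcg1, at 0.991 and 0.985, and Bad and 5830417I10Rik with Plcg2, at 0.968 and 0.914. For the exchange factors they were Mavs and Nup188 with Prex1, at 0.984 and 0.981, and Eps8 and Mroh6 with Vav1, at 0.968 and 0.934. For the adaptors they were Eif2d and Cuedc2 with Gab2, at 0.980 and 0.966, and Dcaf4 and Dcaf1 with Dapp1, at 0.963 and 0.954. For Vav1 and Mroh6 the Spearman coefficient was 0.238. Without WT array 3, Eif2d was still the most similar gene to Gab2, and the other 17 were between the 3rd and the 34th place.

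Genes around these proteins were read from 3 lists. In each list 0 genes were called in limma in either direction, against 0% of all genes. Of 32 other PIP3-binding and PH-domain effectors 29 were measured and 23 tested, of which 16 had a mean above WT and 7 below, with a median difference of 0.15, and 10 were above without WT array 3. Def6, a Rac exchange factor with a PIP3-binding PH domain, was 8.59 ± 0.66 (SD, n = 3) on the KO arrays and 7.76 ± 0.44 (SD, n = 5) on the WT arrays. Cyth3, an ARF exchange factor that binds PIP3, was 6.55 ± 0.77 (SD, n = 3) on the KO arrays and 5.04 ± 1.34 (SD, n = 5) on the WT arrays, and was above the median row on 6 of the 8 arrays. Leaving out WT array 3, Def6 differed by 0.74 and Cyth3 by 1.28. Arap1, a GTPase-activating protein, differed by -0.58, and by -0.30 without KO array 1. Adap1, an ARF GTPase-activating protein, differed by 0.49, and by 0.28 without KO array 2. Arap1 and Adap1 differed by -0.45 and 0.33 without WT array 3. The median was -0.04 without WT array 3.

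Of 30 proximal kinases, scaffolds and phosphatases, 23 were tested, 13 above and 10 below WT, with a median of 0.06. Without WT array 3, 6 of the 23 were above and the median was -0.11. Crk, an SH2 and SH3 adaptor, was 6.99 ± 0.23 (SD, n = 3) on the KO arrays and 6.44 ± 0.23 (SD, n = 5) on the WT arrays. Lat2, a membrane scaffold of myeloid and B cells, was 7.81 ± 0.87 (SD, n = 3) on the KO arrays and 8.89 ± 0.99 (SD, n = 5) on the WT arrays, a difference of -1.08 that was -0.66 without KO array 1. Leaving out WT array 3, Lat2 differed by -0.97, and Crk by 0.49 where it differed by 0.55 with all arrays. The ubiquitin ligases Cbl and Cblb, which restrain tyrosine kinase signals, differed by -0.25 and -0.49, and Cblb by -0.13 without KO array 1. Cbl and Cblb differed by -0.27 and -0.62 without WT array 3.

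Diacylglycerol and phospholipase C signalling had 21 of 35 genes tested, 11 above and 10 below WT, and 7 above without WT array 3. The list also holds other phospholipase C genes, such as Plcb1, Plcb2 and Plcb3, so it is not a list of genes downstream of Plcg1 and Plcg2 alone. The median was 0.01, with a value of 0.11 when KO array 1 was left out, -0.11 for KO array 3 and -0.10 for WT array 3. Nfatc1, a transcription factor that calcium signals activate, was 8.77 ± 0.30 (SD, n = 3) on the KO arrays and 9.76 ± 0.56 (SD, n = 5) on the WT arrays, and its groups did not overlap. The difference of -0.99 was -0.79 without WT array 3. It had the smallest unadjusted p of the 3 lists, 0.0162 in limma, and an adjusted p of 0.998. Plcl2, a phospholipase C relative without catalytic activity, differed by -0.46. The protein kinase C genes Prkce and Prkcb differed by 0.49 and 0.43, and the groups of Prkcb did not overlap either, with KO higher. Groups did not overlap in 3.09% of all genes tested. Leaving out KO array 2 brought Plcl2 to -0.28 and Prkce to 0.30, and leaving out WT array 3 gave -0.48 for Plcl2, 0.48 for Prkce and 0.33 for Prkcb.

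**Figure D5:**
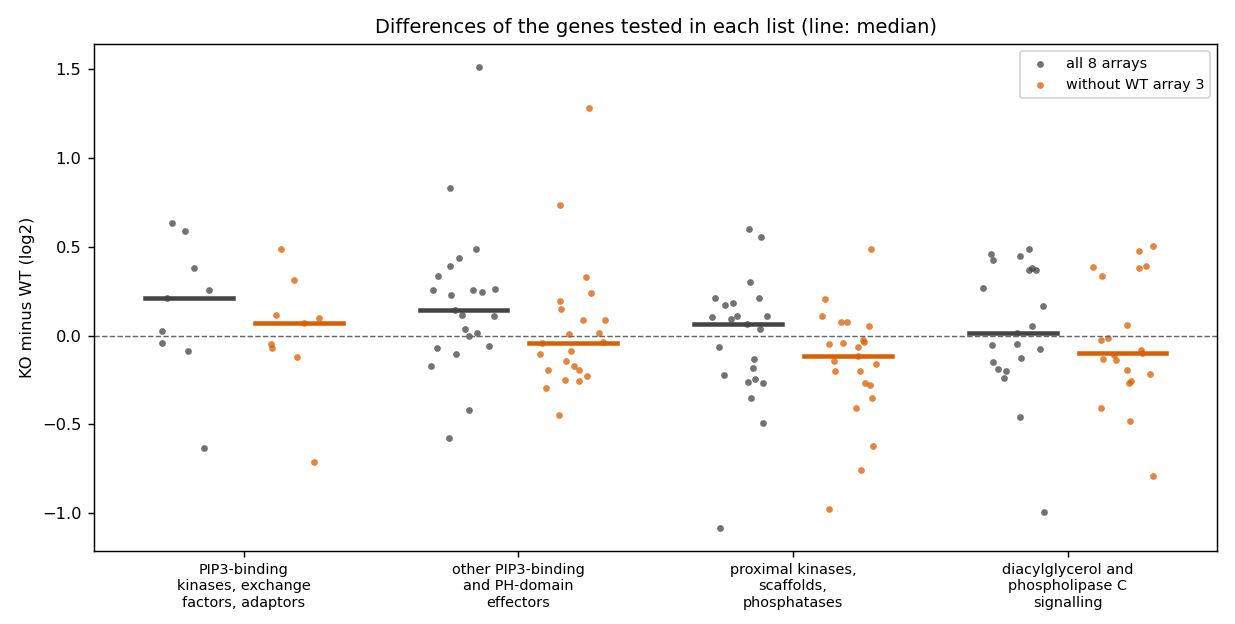
KO minus WT differences (vertical axis, log2) of the tested genes in the 10-gene set and in 3 lists of the same pathway, with all 8 arrays (dark) and without WT array 3 (orange); each point is a gene and each line a median. The medians with all arrays lie between 0.01 and 0.21 and those without WT array 3 between -0.11 and 0.07.

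Several of these genes also mark other blood cells, so marker lists were read. B cells, which use Btk, Plcg2 and Dapp1, had low markers: the mean log2 value of 8 measured markers was 4.75 to 4.84 in KO and 4.63 to 5.41 in WT. Cd79a, Ms4a1, Pax5 and Cd22 lay below the median row on all arrays, while Cd79b and Vpreb1 lay above it on all 8. T and NK markers were at 4.09 to 4.12 in KO and 3.80 to 4.33 in WT over 7 genes, with Cd3e, Cd3g, Ncr1 and Gzma below the median row throughout. Cd3d and Klrb1c lay above it on at least 3 arrays, and 0 of the 7 on all 8. Mast cell and basophil markers were at 5.74 to 5.95 in KO and 5.92 to 6.17 in WT over 8 genes. Megakaryocyte and platelet markers, of cells that also express Btk, Tec and Plcg2, were at 5.58 to 5.91 in KO and 5.38 to 9.73 in WT over 6 genes, with the highest value on WT array 1. On the other WT arrays the highest was 6.55. On WT array 1 Btk, Tec and Plcg2 were at 12.25, 9.86 and 12.72, inside the range of the other arrays. Monocyte and macrophage markers were at 8.998 to 9.49 in KO and 9.15 to 10.40 in WT over 7 genes, again with the highest on WT array 1 and 9.57 as the highest of the other WT arrays. Of these 7 genes 6 had a lower mean in KO and 0 were called, where 56% of all genes tested were above WT. Neutrophil markers were at 13.72 to 15.12 and 14.09 to 14.84 over 7. Erythroid markers, 4 genes, were at 5.38 to 5.46 in KO and 5.14 to 6.14 in WT, and stromal and endothelial markers, 7 genes, at 5.30 to 5.34 and 5.18 to 5.46. A lower mean in KO was not particular to monocyte markers. Tested megakaryocyte markers had 0 above and 4 below WT, with a median of -0.83 that was -0.26 without WT array 1. The numbers above and below were 1 and 4 for mast cell, 2 and 5 for neutrophil and 0 and 2 for B cell markers. They were 2 and 0 for T and NK, 0 and 1 for erythroid and 1 and 2 for stromal markers. In each list 0 were called. The part of such cells in the values of the 10 genes was not tested.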

How the data were processed

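Sorted cells gave RNA that was biotin-labelled and hybridised to Affymetrix arrays, per the labels' protocols. The authors deposited 1 table of log2 values, with 28846 rows and 8 arrays. Its log base was read from the range, 1.89 to 18.6. How background was corrected and arrays were normalized is not given in the sources used here. Array medians were 5.26 to 5.51, and the number of arrays limits the precision. Of 22206 transcript rows, 19572 had 1 symbol in the platform annotation, 0 several and 2634 none. The array named in the design text and the one annotated may differ.

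Groups and replicate numbers came from the sample titles. The KO minus WT difference was fitted in R 4.3.3 with limma 3.58.1 (lmFit, then eBayes; two-sided p) to the deposited values with no further normalization and 1 row per symbol. P-values were adjusted by Benjamini-Hochberg over all genes tested. Tests on single genes were exact permutation tests over 56 splits. Pair correlations used exact permutations. Tested on simulated data with the spread of 9920 genes, the KO against WT fit recovered 19% of 2-fold and 65.4% of 4-fold changes, with 5.3 false calls a run.

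The 10 genes and the lists were chosen with earlier results of these data known. The genes named are these 10, Pik3ca, the 4 tested genes of smallest unadjusted p in each of 4 pathway lists, of which 1 is not reported here, the 2 genes most similar to each of the 9 tested, and defining markers of 9 cell type lists. Markers in the B cell and other lists that are named as dim or bright were chosen after their values were seen. No 2 arrays were duplicates: the closest pair differed by 0.574 (root mean square). Deviations from the group means of same-numbered KO and WT arrays had correlations of 0.02, -0.02 and 0.14 for numbers 1 to 3. Pairs with different numbers ran from -0.12 to 0.14, so the value for number 3 lay near the top of that range. A planned comparison of protein sequences was not made. Figures used matplotlib 3.10.9 in Python 3.11.15.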

Additional observations from a re-analysis of the deposited data

Results flagged for a closer look

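The 5 WT arrays were examined for single arrays that lie apart, in 38 genes: a value was listed where its distance to the closest other array exceeded 0.71 of the group's whole range. Chance gives about 1 in 20 for a gene taken alone. The 38 genes share the same 5 arrays, and the share over all genes tested was not computed. The count therefore does not show an excess particular to these genes. There were 7 such values. WT array 3 was low for 4 of them: Plcg1 at 6.11, where the other WT arrays were 7.43 to 7.84, Prex1 at 8.84, where they were 10.13 to 10.29, Pik3ca at 8.41, where they were 9.48 to 9.58, and Rock1 at 10.91, where they were 12.29 to 12.75. It was high for Wasf2, at 16.40, where the others were 15.86 to 15.99. WT array 5 was high for Vav1, at 16.25, where the others were 15.80 to 15.89, and for Arhgef7, at 14.72, where they were 13.98 to 14.13. KO, with 3 arrays, was not examined.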

How the results depend on the processing

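Under 17 other settings, 0 of the 10 genes and 0 of all genes were called in limma: array weights, median centring, quantile normalization, the replicate number as a block, a trended robust eBayes, the most variable row per symbol, a floor on dim values (25th percentile), dropping the filter, a filter at the 60th percentile on 5 arrays, and leaving out each array. Over these the smallest adjusted p over all genes in limma was 0.264, without KO array 3. Genes at an unadjusted p under 0.05 numbered 217 to 592, where the main fit had 282. These counts are of different totals. The 592 came from 19505 genes with no filter, or 3.04%, and the 282 from 9920, or 2.84%. The 217 came from the filter at the 60th percentile, which tested fewer genes. Of 174 differences of single genes, among them the value of Gab1 in its own main fit, 8 changed sign, all of them small. Many of the 174 could not change sign. The filters, the floor, the trended eBayes, the most variable row and the permutation test left the difference of each tested gene as it was. The 8 of 174 is therefore not a measure of how stable the directions are. Btk turned to -0.00593 with quantile normalization and -0.0257 with array weights, and ran from -0.10 to 0.14 with 1 array left out. Plcg2 turned to 0.0028 with median centring and ran from -0.13 to 0.0138 with 1 array left out. With the replicate number as a block, Plcg2 was 0.0212, Vav1 0.0044, Tec 1.00, Bmx 0.62, Plcg1 0.57, Gab2 0.33, Btk 0.14, Dapp1 -0.32 and Prex1 0.80, the last with an unadjusted p of 0.0434 and an adjusted p of 0.936 in limma, and 0 genes were called. With 1 array left out, list medians ran from -0.11 to 0.12 for proximal kinases and from -0.11 to 0.11 for diacylglycerol signalling. They ran from -0.69 to -0.000114 for mast cell markers and from -0.20 to 0.17 for stromal markers. Other lists moved too: from -1.06 to -0.26 for megakaryocyte, -0.31 to 0.26 for erythroid and -0.63 to -0.15 for B cell markers. T and NK markers ran from 0.07 to 0.51, monocyte markers from -0.50 to -0.18 and neutrophil markers from -0.19 to 0.03. Other PIP3-binding effectors ran from -0.04 to 0.24 and GMP markers from -0.01 to 0.12. Quantile normalization and median centring moved the median of all genes by 0.01 and 0.05. Gab1 is dim and had a value under some of the settings, and the number of arrays limits all genes.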
